A study of Mus musculus with 17 samples.

Results

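The 7 genes described here are textbook targets or parts of the glucocorticoid response: the receptor gene Nr3c1 and 6 genes that glucocorticoid hormones induce in many tissues, Fkbp5, Sgk1, Tsc22d3, Zbtb16, Errfi1 and Pdk4. They were chosen by name, as 7 of the 26131 genes measured, and their levels were taken per mouse, per deposited cell label, per treatment and per deposited batch. Together they held 538586 of the 1099241149 UMIs (unique molecular identifiers, each standing for 1 captured RNA molecule), or 0.0490%. Zbtb16 had 144316 UMIs, Nr3c1 159582, Sgk1 133967, Fkbp5 39992, Errfi1 36316, Tsc22d3 23205 and Pdk4 1208.

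RNA was counted in single nuclei of the posterior brain of 17 female mice, 2.3 months old, all homozygous for a human transferrin receptor knock-in (hTfR KI HOM). The study compared ways of bringing an antisense oligonucleotide (ASO) against the long noncoding RNA Malat1 into the brain from the blood. Saline went to 4 mice, free Malat1 ASO at 2 mg/kg to 4, an antibody against the transferrin receptor joined to the ASO (anti-TfR:Malat1) at 50 mg/kg to 6, and a transport vehicle carrying the ASO (OTV:Malat1) at 50 mg/kg to 3. Every mouse was dosed intravenously 4 times over 24 days and its tissue taken 72 hours after the last dose. The controls carried the same knock-in and had the same number of injections, and no mouse without injections or handling was analysed here. Each sample was a separate mouse, so p-values measure the spread between these mice only. The deposited metadata also gave a batch number from 1 to 4, whose meaning the sources used here do not give. Saline and Malat1 ASO each had 1 mouse in every batch, the 6 anti-TfR:Malat1 mice lay in batches 1, 2, 3, 3, 4 and 4, and the 3 OTV:Malat1 mice in batches 2, 3 and 4.

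Glucocorticoids, corticosterone in mice, are released by the adrenal gland with the time of day and under stress. They bind the receptor encoded by Nr3c1, which leaves its chaperones, enters the nucleus and binds DNA at short palindromic elements, raising some genes and lowering others. Fkbp5 encodes a co-chaperone that lowers the hormone binding of the receptor and so closes a feedback loop. Because nuclei hold newly made transcripts, nuclear counts of such genes follow recent transcription more closely than whole-cell counts. Blood hormone was not measured in the data used here, so the levels below are those of the transcripts alone.

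On GRCm38 (mm10), GENCODE M21 placed Sgk1 at chr10:21882184-21999903 on the plus strand, Fkbp5 at chr17:28399094-28517527 on the minus strand, Zbtb16 at chr9:48654297-48836222 on the minus strand, and Tsc22d3 at chrX:140539528-140600659 on the minus strand. Errfi1 lay at chr4:150853919-150868892 on the plus strand, and Pdk4 at chr6:5483351-5496309 on the minus strand. The promoter windows used here, from RefSeq (GRCm38.p6, 250 bases before to 50 after each start), were 13 windows of Errfi1, Fkbp5, Pdk4, Sgk1 and Tsc22d3, and those of Nr3c1 and Zbtb16 were not analysed here. They were searched on both strands for the palindromic element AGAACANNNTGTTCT and for its right arm TGTTCT, which the full element contains. The full element stood in 3 of 32851 windows (0.00913%), those of Acnat2, Gm35041 and 1 of the 6 windows of Sgk1. The arm stood in 6233 windows (19%) and in 4 of the 13 windows here, 3 of Sgk1 and 1 of Tsc22d3. The Sgk1 window with the full element and the Tsc22d3 window with an arm are shown because they carry the letters the receptor is known to bind. Capitals mark the element in the first and the arm in the second, whose first bases lie 189 and 185 bases before the start. A further arm in the Sgk1 window, 242 bases before the start, is left in lower case.
Sgk1, chr10:21993640-21993939, plus strand: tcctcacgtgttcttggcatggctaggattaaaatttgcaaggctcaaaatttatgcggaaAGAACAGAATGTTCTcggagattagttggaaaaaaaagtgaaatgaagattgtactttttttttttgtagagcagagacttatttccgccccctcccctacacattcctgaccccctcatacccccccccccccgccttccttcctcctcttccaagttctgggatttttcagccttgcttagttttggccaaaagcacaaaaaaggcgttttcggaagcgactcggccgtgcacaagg
Tsc22d3, chrX:140600473-140600772, minus strand: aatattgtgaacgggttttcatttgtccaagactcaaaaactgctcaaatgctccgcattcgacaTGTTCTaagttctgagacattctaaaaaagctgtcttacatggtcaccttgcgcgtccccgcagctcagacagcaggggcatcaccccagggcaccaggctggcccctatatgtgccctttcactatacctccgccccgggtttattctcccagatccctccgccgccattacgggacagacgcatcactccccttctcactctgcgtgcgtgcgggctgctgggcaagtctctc
A match describes letters only, and the windows of Fkbp5, Errfi1 and Pdk4 held neither form. The windows do not reach the introns and distant enhancers.

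Each mouse gave 13841 to 18365 nuclei and 55393588 to 79866411 UMIs, and the median nucleus held 2894 to 4052 UMIs. By the deposited labels 68.0% of the 284074 nuclei were neurons, 26.5% oligodendrocytes, 2.97% microglia and 1.75% astrocytes, besides 1226 vascular nuclei and 657 perivascular macrophages. The labels were checked against markers: oligodendrocytes had 4347 CPM (counts per 1000000 UMIs) of Mbp and microglia 1261 CPM of P2ry12, while the vascular nuclei joined endothelial Flt1 (1013 CPM), mural Vtn (639 CPM) and fibroblast Slc6a13 (473 CPM). Of the nuclei in cluster 13, which was led by the precursor genes Pdgfra and Vcan, 94.3% were labelled neurons. Meg3, a neuronal RNA, stood in the other classes at 4.81% to 9.33% of its neuronal level. Of 273792 barcode sequences, 3.67% occurred in more than 1 mouse, and 16.8% of nuclei carried a deposited doublet call and were kept. In oligodendrocytes, Malat1, the target, had a mean of 102140 ± 17495 CPM (SD, n = 4) in saline and 16681 ± 2049 (n = 3) in OTV:Malat1, which checks the labels of those groups. Because Malat1 took such a share of all UMIs, CPM of every other gene rise when it falls. Changes were therefore read from the fit scaled by TMM, which lowers that effect.

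Across the 6 classes, each of the 7 genes had its own pattern. Values are means over the 17 mice with the SD, and orders are between classes for 1 gene, since genes differ in length and capture.

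Nr3c1, the receptor, was present in every class. Its mean level was 411 ± 119 CPM in perivascular macrophages, 344 ± 53.3 in microglia, 259 ± 81.4 in vascular nuclei, 227 ± 38.9 in astrocytes, 215 ± 30.1 in oligodendrocytes and 134 ± 13.6 in neurons. Microglia exceeded vascular nuclei in 14 of 17 mice and oligodendrocytes exceeded neurons in all 17. Vascular nuclei, astrocytes and oligodendrocytes were not separated, each being higher than the next in 10 of 17 mice.

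Fkbp5, the co-chaperone, was highest in the immune and vascular classes. It reached 290 ± 322 CPM in perivascular macrophages, 230 ± 102 in microglia and 151 ± 124 in vascular nuclei. Neurons had 35.4 ± 5.51 CPM, oligodendrocytes 31 ± 17.9 and astrocytes 18.5 ± 13.2, the last on 1 to 32 UMIs per mouse. Perivascular macrophages exceeded microglia in only 6 of 17 mice, and their median of 189 CPM lay below the microglial median of 206. One mouse reached 1378 CPM, and over the other 16 the means were 222 CPM in perivascular macrophages and 214 in microglia, so the classes were not ordered beyond their spread. Microglia exceeded vascular nuclei in 15 mice and vascular nuclei exceeded neurons in 16. Neurons exceeded oligodendrocytes in 13 mice, although the oligodendrocytes of the highest mouse were above every neuronal value.

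Sgk1, a kinase that acts on ion channels and transporters, was led by neurons at 126 ± 6.86 CPM and oligodendrocytes at 103 ± 61.4. Microglia had 52.9 ± 14.3 CPM, vascular nuclei 33.1 ± 18.4, perivascular macrophages 24.6 ± 19.2 and astrocytes 20.4 ± 7.39. The neuronal level at the share of Meg3 seen in each class, as a gauge of neuronal RNA there, would give 8.78 CPM in microglia, 11.8 in vascular nuclei, 11.2 in perivascular macrophages and 6.07 in astrocytes. Vascular nuclei, perivascular macrophages and astrocytes were not ordered beyond their spread, with vascular nuclei above perivascular macrophages in 9 of 17 mice. The neuronal range of 119 to 142 CPM was narrow and the oligodendrocyte range of 28.9 to 215 CPM wide, so neurons were above oligodendrocytes in 13 mice and below in the others.

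Tsc22d3, which encodes the glucocorticoid-induced leucine zipper protein, was nearly absent from neurons. Neurons had 6.87 ± 1.4 CPM and oligodendrocytes 142 ± 19, and the lowest oligodendrocyte value, 107 CPM, was above the highest neuronal value, 9.17. Perivascular macrophages had 118 ± 73.0 CPM, astrocytes 88.0 ± 25.9, vascular nuclei 79.7 ± 33.9 and microglia 36.1 ± 13.5. Microglia exceeded neurons in all 17 mice.

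Zbtb16, a zinc finger transcription factor, had 163 ± 115 CPM in vascular nuclei, 134 ± 21.5 in neurons and 129 ± 62.4 in oligodendrocytes. These 3 classes were not separated, with vascular nuclei above neurons in 7 of 17 mice and neurons above oligodendrocytes in 11. Astrocytes followed at 74.6 ± 24.4 CPM and lay below oligodendrocytes in all 17 mice. The 13.4 ± 5.4 CPM in microglia were close to the 9.31 CPM that the neuronal level would give there at the share of Meg3 seen in microglia.

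Errfi1, a feedback inhibitor of the epidermal growth factor receptor, was led by vascular nuclei at 207 ± 106 CPM and oligodendrocytes at 95.1 ± 18.6. Vascular nuclei were above oligodendrocytes in 15 of 17 mice, and oligodendrocytes were above microglia, at 42.1 ± 12.8 CPM, in all 17. Neurons had 26 ± 3.68 CPM and astrocytes 20.2 ± 7.68.

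Pdk4, which inhibits the pyruvate dehydrogenase complex and so spares glucose, was found mainly in astrocytes at 22.1 ± 6.56 CPM and in oligodendrocytes at 7.15 ± 2.09. Astrocytes were higher in all 17 mice. Neurons had 0.210 ± 0.0918 CPM from 207 UMIs, and no UMI was seen in the 753454 UMIs of perivascular macrophages.

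**Figure D1:**
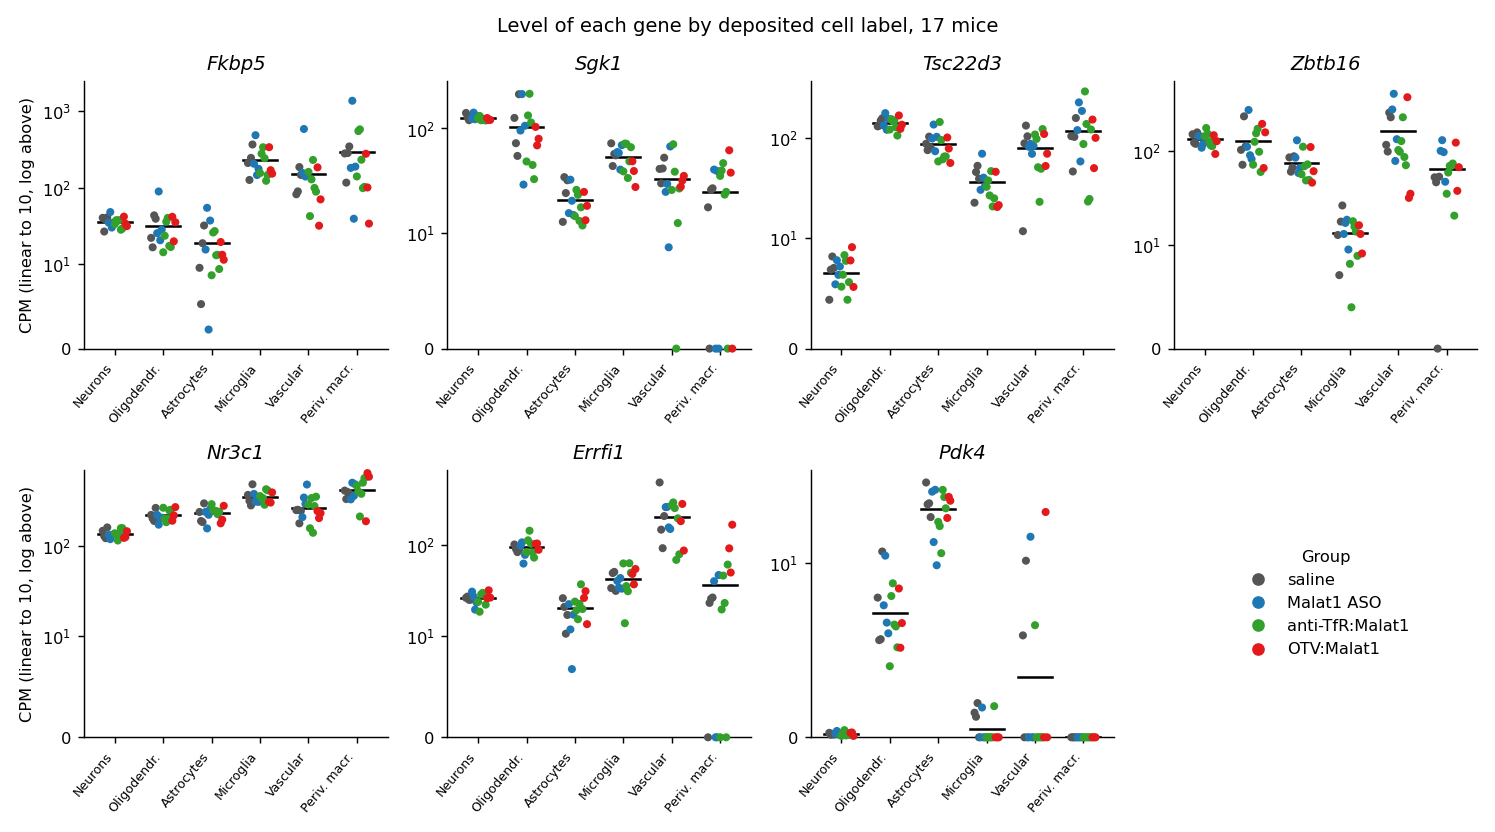
Level of each of the 7 genes in CPM (vertical axis, linear to 10 and logarithmic above) in the 6 deposited classes (horizontal axis). Each point is 1 of 17 mice, coloured by group, and each black line is the mean. Fkbp5 is highest in microglia, vascular nuclei and perivascular macrophages, Tsc22d3 is lowest in neurons at 6.87 CPM, and Pdk4 is highest in astrocytes at 22.1 CPM.

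Among the deposited clusters, the neuronal label hid differences of severalfold. Fkbp5 stood at 96.8 ± 8.46 CPM in cluster 9, a neuronal cluster led by Glis3, Vwa3b, Gpc4 and Trpc6, with every mouse between 79.5 and 112 CPM. The other clusters labelled neurons almost throughout ran from 18 CPM (cluster 3) to 48.8 CPM (cluster 10, led by Sh3rf2, Rarb and Drd2). Zbtb16 was also highest in cluster 9, at 286 ± 26.9 CPM, and lowest among them in cluster 12, at 31.4 CPM. Sgk1 had the opposite place: cluster 9 was the lowest at 61.6 CPM, and cluster 10 the highest of the neuronal clusters at 212 ± 42.8 CPM. The precursor-led cluster 13 had 230 ± 18.6 CPM of Sgk1. Cluster 12, led by Prkcd, Lef1 and Synpo2, had 240 CPM of Nr3c1 against 97.4 CPM in cluster 9. The clusters had been formed by the authors from the same nuclei, so these values are a description.

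The spread between mice was wider in oligodendrocytes than in neurons for Sgk1, Zbtb16 and Fkbp5. Within groups, the SD of log2(CPM + 1) in oligodendrocytes was 0.97 for Sgk1, 0.71 for Zbtb16 and 0.69 for Fkbp5, against a median of 0.18 over 9115 genes with a mean of 10 or more CPM there. Sgk1 was more variable than 99.9% of those genes, and Fkbp5 and Zbtb16 each more than 99.8%. Nr3c1 and Tsc22d3 both had an SD of 0.21 and Errfi1 0.29, nearer to the median gene. In neurons the median SD over 9540 genes was 0.13. The neuronal SD of Sgk1 was 0.07, above 12% of those genes, while Fkbp5 at 0.24 was above 87.6% and Zbtb16 at 0.25 above 89.2%. A mouse gave 101 to 536 UMIs of Fkbp5, 176 to 1286 of Sgk1 and 401 to 1662 of Zbtb16 in oligodendrocytes. In neurons it gave 1579 to 2760, 6081 to 9536 and 5089 to 12807, so the depth differed between the classes, and its part in the spread was not tested.

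Fkbp5 in oligodendrocytes was 21.9, 16.5, 43.3 and 39.1 CPM in saline replicates 1 to 4 and 25.3, 89.1, 20.4 and 28.2 CPM in Malat1 ASO replicates 1 to 4. In anti-TfR:Malat1 the lowest, median and highest values were 14.2, 20.3 and 40.1 CPM, and in OTV:Malat1 replicates 1 to 3 they were 41.5, 19.8 and 35.2. All 4 groups overlapped, and Malat1 ASO replicate 2 stood apart from the other 16 mice.
The mean was 32.1 ± 11.2 CPM in OTV:Malat1 (n = 3), 24.5 ± 10.9 in anti-TfR:Malat1 (n = 6), 40.7 ± 32.4 with free Malat1 ASO (n = 4) and 30.2 ± 13 with saline (n = 4). The fitted log2 change against saline was −0.06 (SE 0.47, 2 SE either side −1.0 to 0.87) for OTV:Malat1, −0.36 (SE 0.40) for anti-TfR:Malat1 and 0.45 (SE 0.43, −0.40 to 1.31) for Malat1 ASO. Without Malat1 ASO replicate 2 the last became −0.28 (SE 0.37), and so turned its sign. Over the 3 comparisons the intervals ran from −1.15 to 1.31, and log2 changes within them are not excluded at this spread.

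Sgk1 in oligodendrocytes was 126, 72.2, 54.5 and 213 CPM in the saline mice and 95.5, 214, 28.9 and 106 CPM in the Malat1 ASO mice. In anti-TfR:Malat1 it ran from 32.7 through a median of 81.1 to 215 CPM, and in OTV:Malat1 it was 103, 68.8 and 79.6 CPM. Single mice with over 200 CPM were found in 3 of the 4 groups. OTV:Malat1 had the narrowest range, but also the fewest mice, 3, and none in batch 1.
The mean was 84.0 ± 17.7 CPM in OTV:Malat1 (n = 3), 98.0 ± 70.4 in anti-TfR:Malat1 (n = 6), 111 ± 76.5 with free Malat1 ASO (n = 4) and 116 ± 71.2 with saline (n = 4). The log2 change of OTV:Malat1 against saline was −0.65 (SE 0.60, 2 SE either side −1.86 to 0.56).

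Zbtb16 in oligodendrocytes was 103, 71.6, 236 and 112 CPM in saline and 112, 276, 90.6 and 82.5 CPM in Malat1 ASO. In anti-TfR:Malat1 it ran from 60.0 through a median of 112 to 174 CPM, and in OTV:Malat1 it was 196, 66.1 and 159 CPM. The same Malat1 ASO mouse was highest, followed by saline replicate 3. Zbtb16 changed by −0.05 (SE 0.46) on the log2 scale in OTV:Malat1 against saline, a difference well inside the spread.

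The remaining 4 genes kept to narrower ranges in oligodendrocytes. For Tsc22d3 saline had 144 ± 13.1 CPM, Malat1 ASO 148 ± 25.2, anti-TfR:Malat1 136 ± 19.4 and OTV:Malat1 144 ± 23.4. Errfi1 had 91.7 ± 7.57, 87.2 ± 20.3, 101 ± 26.3 and 99.3 ± 8.63 CPM in the same order of groups. Nr3c1 had means of 216, 198, 222 and 223 CPM and ran from 170 to 265 over the 17 mice. For OTV:Malat1 against saline, Nr3c1 was higher in mean CPM and yet lower by 0.14 (SE 0.15) in the fit scaled by TMM, so the sign differed between unscaled group means and the fit. Pdk4 ran from 4.08 to 11.8 CPM over the 17 mice, on 27 to 76 UMIs per mouse.

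**Figure D2:**
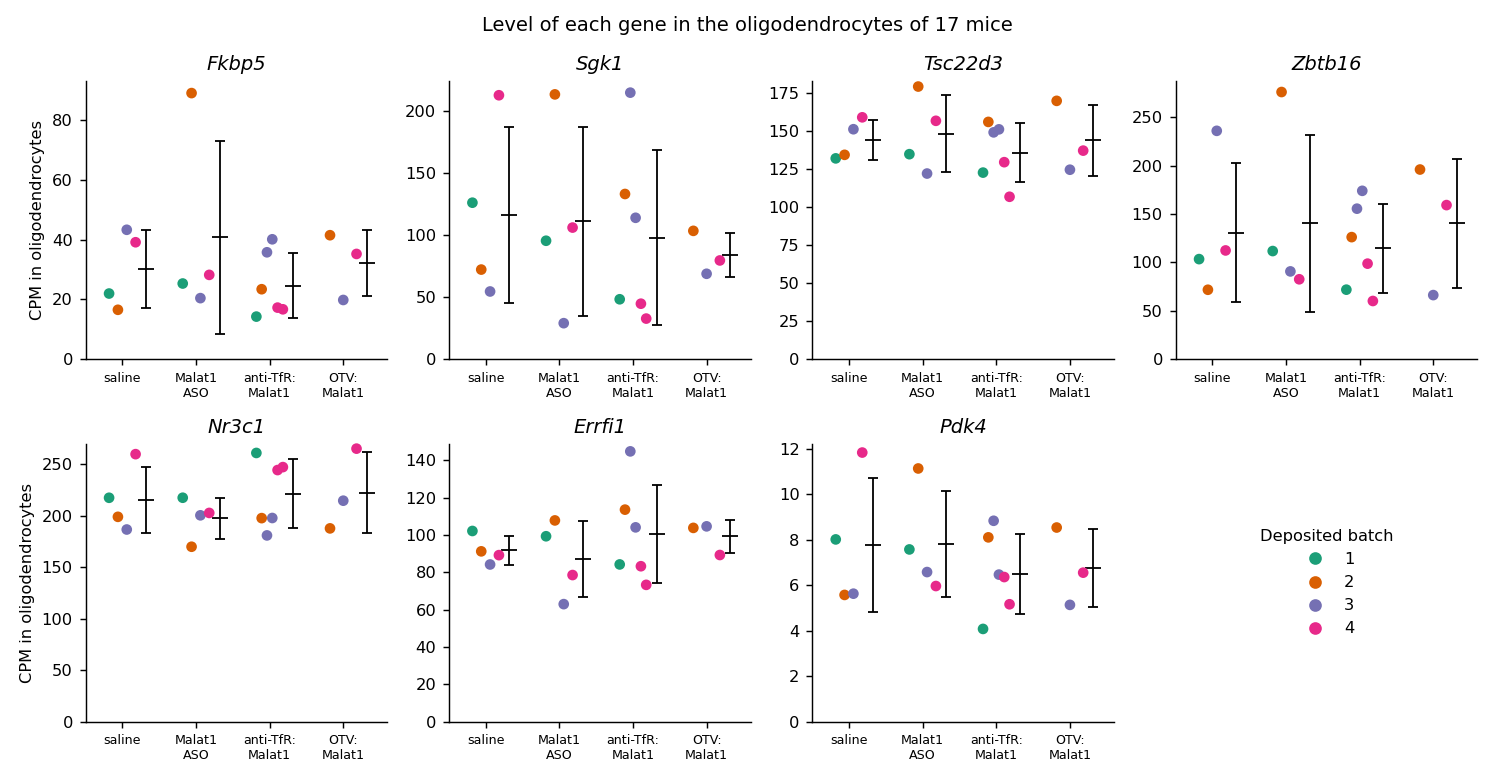
Level of each of the 7 genes in oligodendrocytes in CPM (vertical axis, from 0) by group (horizontal axis). Each point is 1 mouse, coloured by deposited batch, and the bar beside it is the group mean with the SD. The groups overlap for every gene, and Malat1 ASO replicate 2, in batch 2, is the highest mouse for Fkbp5 (89.1 CPM) and Zbtb16 (276 CPM).

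None of the 7 genes passed the test in any treatment comparison. Of the 42 pairs of gene and class, 33 passed the filter on low counts and were tested with edgeR's quasi-likelihood test, with p-values adjusted by Benjamini-Hochberg over all genes of the class and a threshold of 0.05. A pair that failed the filter had too few UMIs, as for Pdk4 in microglia, vascular nuclei and perivascular macrophages. For OTV:Malat1 against saline 0 of 33 were called by edgeR, where 0.00866% of all 57706 gene and class pairs were called. Those calls were Malat1, the target, in oligodendrocytes, astrocytes and microglia, and Saa3 and Slc35f2 in oligodendrocytes, all lower in OTV:Malat1. For OTV:Malat1 against anti-TfR:Malat1 0 of 33 were called beside 0.00347% of all pairs, which were Malat1 in oligodendrocytes and astrocytes. For anti-TfR:Malat1 and for Malat1 ASO against saline 0 of 33 were called and 0% of all pairs, so Malat1 itself was not called there either. DESeq2 called 0 members in each of the 4, and at an unadjusted p under 0.05 edgeR called 0 in each, where 2.68%, 3.02%, 2.03% and 1.53% of all pairs passed that mark in the order above. The lowest adjusted p over the 4 comparisons was 0.968 (edgeR). The comparisons with saline share the 4 saline mice and are not independent of each other.

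The lowest unadjusted p-values belonged to pairs in small classes. Sgk1 in microglia was lower in OTV:Malat1 than in saline by a log2 change of −0.58 (SE 0.29, unadjusted p = 0.0528, adjusted p = 0.973 by edgeR), on 9 to 51 UMIs per mouse. Fkbp5 in vascular nuclei was higher in Malat1 ASO than in saline by 0.98 (SE 0.48, unadjusted p = 0.0510, adjusted p = 0.995 by edgeR), on 3 to 40 UMIs per mouse. Malat1 ASO replicate 2 had 588 CPM there and the next mouse of its group 156, and without that mouse the change was 0.26 (SE 0.44). Fkbp5 in microglia, where its counts were higher, was 210, 126, 245 and 368 CPM in saline and 339, 169 and 153 CPM in OTV:Malat1, with a log2 change of −0.09 (SE 0.38). Sgk1 in neurons, the most evenly measured pair, changed by −0.13 (SE 0.07, 2 SE either side −0.28 to 0.01) in OTV:Malat1 against saline. With batch as a block in OTV:Malat1 against anti-TfR:Malat1, 0 members were called beside 0.00520% of all pairs, and 2 of 33 had an unadjusted value under 0.05 beside 4.47% of all pairs. They were Nr3c1 in neurons (unadjusted p = 0.0291, adjusted p = 0.898 by edgeR) and Fkbp5 in perivascular macrophages (unadjusted p = 0.0441, adjusted p = 0.998 by edgeR).

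In direction, 7 of the 33 tested pairs were higher and 26 lower in OTV:Malat1 than in saline, 12 higher and 21 lower in anti-TfR:Malat1, and 19 higher and 14 lower in Malat1 ASO. By group means of CPM, which use neither the TMM scaling nor the model, the same counts were 10 and 23, 11 and 22, and 18 and 15. In oligodendrocytes the mean CPM of OTV:Malat1 was above saline, and the fitted change below 0, for Fkbp5, Zbtb16, Errfi1 and Nr3c1. For OTV:Malat1 against anti-TfR:Malat1 the fit gave 11 higher and 22 lower, and mean CPM 18 higher and 15 lower. With RLE size factors, with Malat1 left out of library sizes and with DESeq2 it was 11 and 22 each time, so the balance turned only between group means and the fits. The 33 pairs share mice and are not independent. Without Malat1 ASO replicate 2, the count for Malat1 ASO against saline turned to 7 higher and 26 lower, with a change of sign in 14 of the 33. In oligodendrocytes the median log2 change of the 7 genes was −0.14 in OTV:Malat1 against saline (all genes 0.01), −0.25 in anti-TfR:Malat1 (all genes −0.00) and 0.02 in Malat1 ASO (all genes −0.00). In neurons the medians were −0.09, −0.00 and 0.02.

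**Figure D3:**
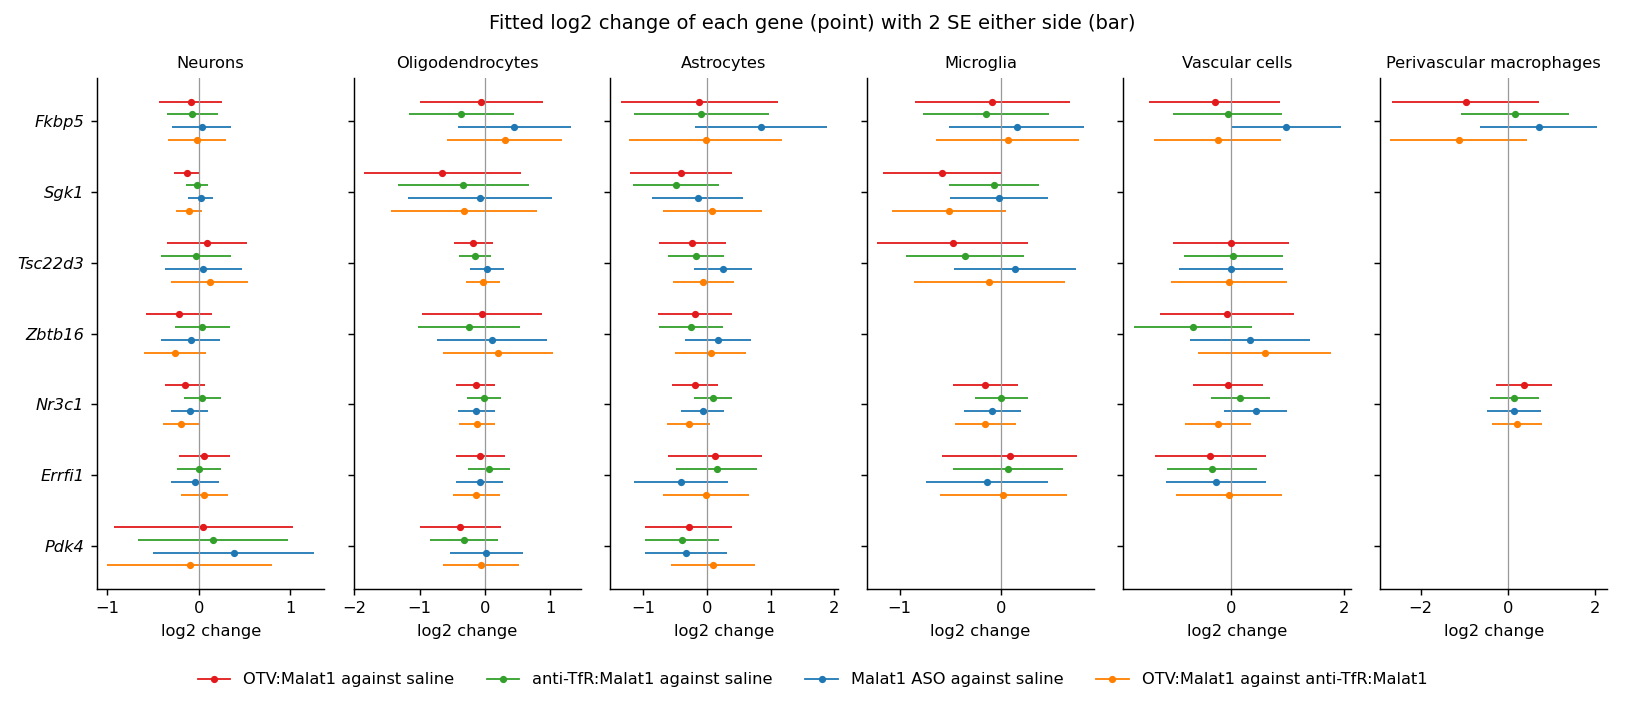
Fitted log2 change (horizontal axis, points) with 2 SE either side (bars) for each of the 7 genes (vertical axis) in the 6 classes (panels), coloured by comparison. Pairs without a point did not pass the filter on low counts. The bars are narrowest for Sgk1 and Nr3c1 in neurons and widest for Fkbp5 in perivascular macrophages, where the change of OTV:Malat1 against saline was −0.97 with an SE of 0.84.

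Of the other genes of the pathway, none was called. A list of 28 further glucocorticoid-responsive genes, such as Per1, Klf9 and Ddit4, was tested in 88 pairs of gene and class, and 0 were called in any of the 4 comparisons by edgeR, with 3 at an unadjusted p under 0.05 in OTV:Malat1 against saline, where 2.68% of all pairs passed that mark, and 2 in anti-TfR:Malat1 against saline, where 2.03% did. For the receptor machinery (chaperones, coactivators, corepressors and the mineralocorticoid receptor Nr3c2) 0 of 81 pairs were called by edgeR in any comparison, with 1 at an unadjusted p under 0.05 in Malat1 ASO against saline (1.53% of all pairs) and 1 between the OTV:Malat1 and anti-TfR:Malat1 mice (3.02%). For immediate early genes 0 of 39 were called, with 2 at that mark in OTV:Malat1 against saline (2.68% of all pairs), 1 in anti-TfR:Malat1 against saline and 1 between the OTV:Malat1 and anti-TfR:Malat1 mice. For clock genes 0 of 60 were called, with 8 at that mark in OTV:Malat1 against anti-TfR:Malat1, where 3.02% of all pairs passed it, and 4 in OTV:Malat1 against saline, where 2.68% did. Per1 was counted among the glucocorticoid-responsive genes and not among the clock genes.

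Whether a treatment changed oligodendrocytes differently from neurons of the same mouse was tested for the 7 genes in the 4 comparisons by exact two-sided permutation of the mice. These groups allow an exact permutation p no smaller than 0.0571 for 3 mice against 4, 0.0286 for 4 against 4, 0.0238 for 3 against 6 and 0.00952 for 6 against 4. Over 28 tests a single result could therefore reach no adjusted p below 0.267, so the adjusted values say nothing on whether the classes responded alike. The smallest unadjusted value was p = 0.229 (exact permutation). For Fkbp5, oligodendrocytes minus neurons was −0.19 ± 0.48 on the log2(CPM + 1) scale in OTV:Malat1 (n = 3) and −0.34 ± 0.49 in saline (n = 4, exact permutation p = 0.743).

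Between the deposited batches 3 of 33 pairs were called by edgeR with the group in the model (joint test of the batch terms), beside 11.2% of all pairs, a share near the background. They were Nr3c1 in oligodendrocytes and neurons and Tsc22d3 in neurons, and Nr3c1 did not pass in the other 4 classes (adjusted p from 0.0770 to 0.925, edgeR). DESeq2 called the same 3. At an unadjusted p under 0.05 it was 11 of 33 beside 26.1% of all pairs by edgeR. Nr3c1 in oligodendrocytes had 232 ± 25.1 CPM in batch 1 (n = 3), 189 ± 13.4 in batch 2 (n = 4), 196 ± 13.1 in batch 3 (n = 5) and 244 ± 24.6 in batch 4 (n = 5; adjusted p = 0.00926, edgeR). Nr3c1 in neurons followed the same order, with 138 ± 7.46, 125 ± 7.09, 125 ± 8.99 and 149 ± 10.6 CPM (adjusted p = 0.0237, edgeR). Both classes were thus lower in batches 2 and 3 than in batches 1 and 4. Tsc22d3 in neurons went the other way, with 5.28 ± 0.753, 7.44 ± 0.647, 8.11 ± 0.922 and 6.14 ± 1.25 CPM (adjusted p = 0.0239, edgeR). Leaving out 1 mouse at a time moved the count of members called between 1 and 8, the 8 without saline replicate 2, when Fkbp5 in neurons, microglia and perivascular macrophages was among them, and the 1 without saline replicate 3 or OTV:Malat1 replicate 3. The count over all pairs moved as well, between 3700 and 7043, against 6453 of 57706 with all mice. The share of all pairs in each single fit is not given here. Nr3c1 in oligodendrocytes was called in every one of these fits.

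Fkbp5 in oligodendrocytes was not called between batches, with means of 20.5, 42.6, 31.9 and 27.3 CPM. Inside the batches the treatments kept no common order. In batch 1 the saline mouse had 21.9 CPM, the Malat1 ASO mouse 25.3 and the anti-TfR:Malat1 mouse 14.2. In batch 2 saline was the lowest at 16.5 CPM, below anti-TfR:Malat1 at 23.4, OTV:Malat1 at 41.5 and Malat1 ASO at 89.1. In batches 3 and 4 saline was the highest, at 43.3 and 39.1 CPM, with OTV:Malat1 at 19.8 and 35.2. With batch as a block the log2 change of OTV:Malat1 against saline was −0.29 for Fkbp5 and −0.84 for Sgk1 in oligodendrocytes, against −0.06 and −0.65 without it.

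**Figure D4:**
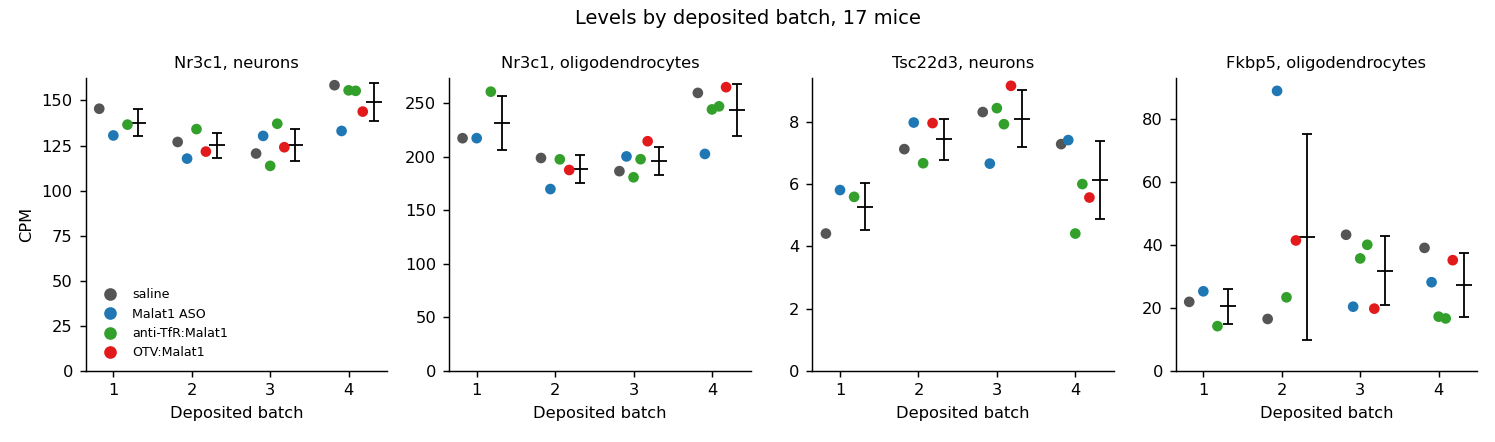
Level in CPM (vertical axis, from 0) by deposited batch (horizontal axis) for Nr3c1 in neurons and oligodendrocytes, Tsc22d3 in neurons and Fkbp5 in oligodendrocytes. Each point is 1 mouse, coloured by group, with the batch mean and SD beside it. Nr3c1 is lower in batches 2 and 3 in both classes, and neuronal Tsc22d3 is higher there.

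Of the other lists, 5 of 88 pairs of glucocorticoid-responsive genes (5.68%) differed between batches by edgeR: Cebpb, Cebpd and Sult1a1 in neurons and Cebpb and Glul in oligodendrocytes. For clock genes it was 6 of 60 (10.0%), among them Dbp in both large classes and Nr1d2 in oligodendrocytes. For the receptor machinery it was 6 of 81 (7.41%), and for immediate early genes 0 of 39, with 4 at an unadjusted p under 0.05. None of these shares exceeded the 11.2% over all pairs.

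Across the 17 mice, Fkbp5 rose with Zbtb16, Tsc22d3, Sgk1 and Pdk4 in oligodendrocytes, and its relation with Errfi1 did not pass. Correlations were computed on log2(CPM + 1) between Fkbp5 and each of the 6 other members in oligodendrocytes and in neurons, 12 in all, with two-sided permutation p-values adjusted over the 12. In oligodendrocytes Fkbp5 rose with Zbtb16 (r = 0.89, rho = 0.90, permutation p = 2.0e-05 and p = 1.0e-05, adjusted p = 2.4e-04) and with Tsc22d3 (r = 0.83, rho = 0.84, permutation p = 4.0e-05 and p = 8.0e-05, adjusted p = 2.4e-04). Without the 2 mice farthest from the median of Fkbp5, Malat1 ASO replicate 2 and anti-TfR:Malat1 replicate 1, r was 0.86 and 0.77, and for residuals after batch and group it was 0.91 and 0.82. A permutation p of 1.0e-05 is the smallest that 100000 resamples can give.

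Sgk1 also followed Fkbp5 in oligodendrocytes (r = 0.65, rho = 0.60, permutation p = 0.00427 and p = 0.0119, adjusted p = 0.0128). It gave 0.54 without those 2 mice (permutation p = 0.0372, adjusted p = 0.112), which no longer passed, and 0.70 after batch and group. Pdk4 had r = 0.68 (rho = 0.64, permutation p = 0.00235 and p = 0.00727, adjusted p = 0.00940), and 0.47 (permutation p = 0.0742, adjusted p = 0.148) without the 2 mice, which no longer passed either. Nr3c1, the receptor, ran against Fkbp5 (r = −0.52, rho = −0.55, permutation p = 0.0328 and p = 0.0237, adjusted p = 0.0499). That relation rested on the 2 mice, since r was −0.23 (permutation p = 0.398) without them. Errfi1 had r = 0.39 (rho = 0.37, permutation p = 0.121 and p = 0.149, adjusted p = 0.161).

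In neurons the relations were looser. Zbtb16 had r = 0.57 (rho = 0.61, permutation p = 0.0160 and p = 0.0109, adjusted p = 0.0385) and 0.63 without Malat1 ASO replicate 2 and saline replicate 2, the 2 farthest mice there (permutation p = 0.0131, adjusted p = 0.0523), which missed the threshold. Sgk1 had r = 0.55 (rho = 0.45, permutation p = 0.0221 and p = 0.0708, adjusted p = 0.0443) and Pdk4 r = 0.52 (rho = 0.49, permutation p = 0.0333 and p = 0.0487, adjusted p = 0.0499), and without the 2 mice these were 0.48 and 0.35 with permutation p = 0.0695 and p = 0.195. Neuronal Pdk4 had a mean of only 0.210 CPM, below the pseudocount of 1, on 4 to 26 UMIs per mouse. Tsc22d3, Nr3c1 and Errfi1 had r of 0.36, −0.33 and 0.10 and did not pass. Of the 12 relations 8 passed, that of neuronal Pdk4 among them, 5 without Malat1 ASO replicate 2, and 2 without the 2 farthest mice. The share of all genes that would pass the same test is not given here. Among 9114 genes ranked in oligodendrocytes, 1 had a higher r with Fkbp5 than Zbtb16, 9 than Tsc22d3, 57 than Pdk4 and 71 than Sgk1. A lower r than that of Nr3c1 was found for 1.22% there. Among 9539 genes ranked in neurons, 132 had a higher r than Zbtb16, 183 than Sgk1 and 252 than Pdk4.

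Levels in oligodendrocytes were also set beside those of the same gene in neurons, astrocytes and microglia of the same mice. These 17 relations were chosen after the values had been seen, so their p-values are a description and no independent support. Of the 17, 9 had an adjusted p under 0.05, all 3 of Fkbp5, all 3 of Nr3c1, 2 of 2 of Tsc22d3, 1 of 3 of Zbtb16 and 0 of 3 each of Sgk1 and Errfi1. No share over all genes was set beside this count. The classes of a mouse share its library and batch, so the count is not shown to be particular to these genes. Fkbp5 in oligodendrocytes rose with Fkbp5 in microglia (r = 0.83, rho = 0.80, permutation p = 8.0e-05 and p = 2.2e-04, adjusted p = 6.8e-04), in neurons (r = 0.78, rho = 0.79, permutation p = 1.6e-04 and p = 2.7e-04, adjusted p = 9.1e-04) and in astrocytes (r = 0.68, rho = 0.70, permutation p = 0.00286 and p = 0.00242, adjusted p = 0.00810). Without the 2 farthest mice r was 0.76, 0.73 and 0.55, and after batch and group 0.87, 0.86 and 0.74. The astrocyte values rest on 1 to 32 UMIs of Fkbp5 per mouse. Nr3c1 in oligodendrocytes rose with Nr3c1 in neurons (r = 0.83, rho = 0.79, permutation p = 7.0e-05 and p = 2.9e-04, adjusted p = 6.8e-04), and after batch and group r was 0.57. Sgk1 in oligodendrocytes and neurons had r = 0.52 (rho = 0.51, permutation p = 0.0313 and p = 0.0406, adjusted p = 0.0532), which did not pass.

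**Figure D5:**
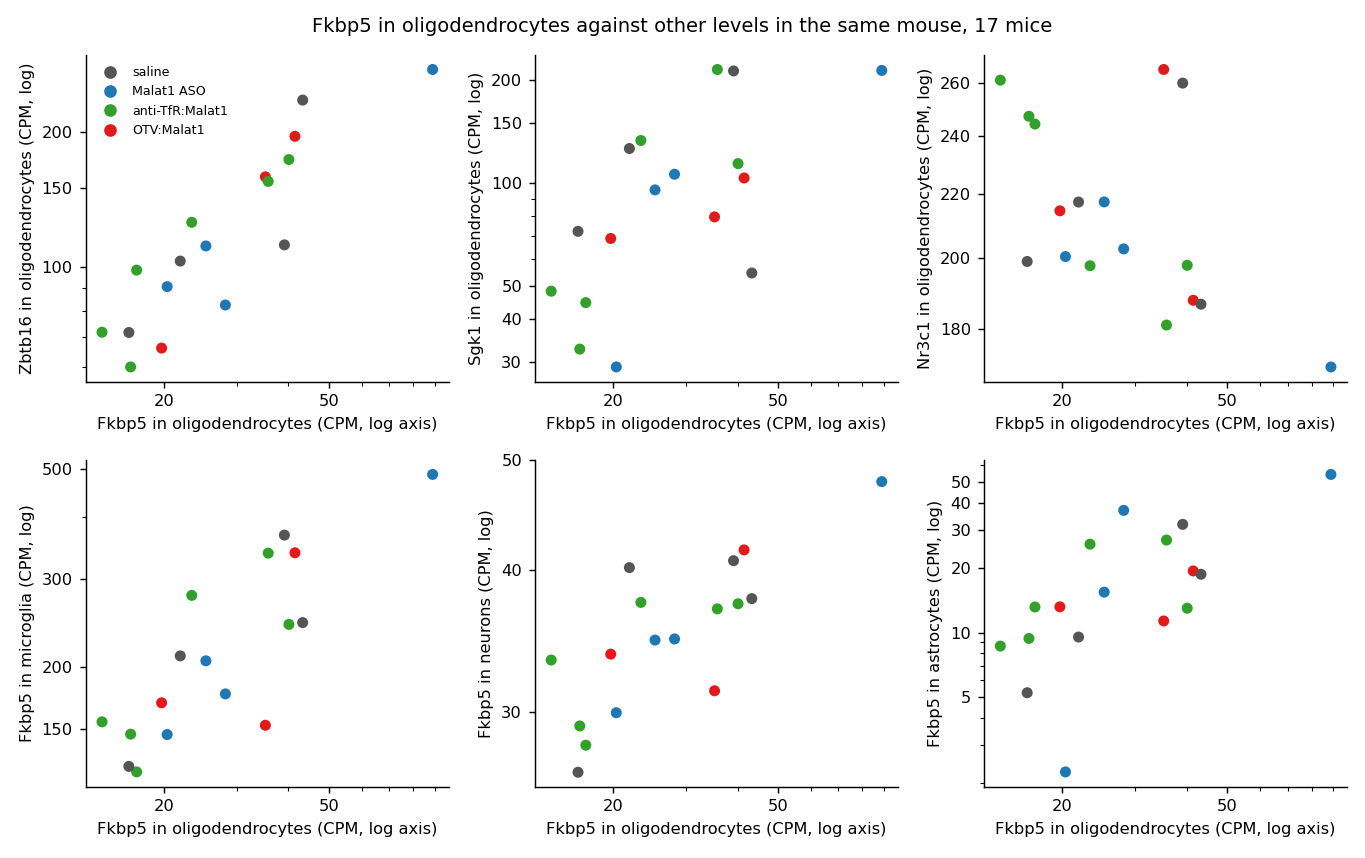
Fkbp5 in oligodendrocytes (horizontal axis, CPM, log) against Zbtb16, Sgk1 and Nr3c1 in oligodendrocytes and Fkbp5 in microglia, neurons and astrocytes of the same mouse (vertical axes, CPM, log). Each point is 1 of 17 mice, coloured by group. Zbtb16 and microglial Fkbp5 rise with it (r = 0.89 and 0.83), and Malat1 ASO replicate 2 is the point farthest right at 89.1 CPM.

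Measures of the libraries were set beside Fkbp5 in oligodendrocytes. Its correlation with the share of nuclei labelled oligodendrocytes was −0.48 (rho = −0.51, permutation p = 0.0484 and p = 0.0374, adjusted p = 0.242 over 5 such relations). Without the 2 farthest mice it was −0.58 (permutation p = 0.0266), and without Malat1 ASO replicate 2 −0.61 (permutation p = 0.0143). After batch and group it was −0.51, given without a p-value because the permutation did not count the terms removed. With the median UMIs per nucleus it was −0.36 (permutation p = 0.157, adjusted p = 0.268), with −0.55 (permutation p = 0.0339) without the 2 mice, −0.50 (permutation p = 0.0468) without Malat1 ASO replicate 2 and −0.39 after batch and group. It was 0.36 with the share of doublet calls, 0.21 with Meg3 in oligodendrocytes and −0.01 with Malat1 there, with adjusted p-values from 0.268 to 0.964 over the 17 mice. Neuronal Fkbp5 at the share of Meg3 seen in oligodendrocytes would give 1.90 CPM of the 31 CPM there. In the 3 oligodendrocyte clusters Fkbp5 ran over the mice from 7.42 to 89.9, from 10.8 to 82.7 and from 11.2 to 82.4 CPM.

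Among 9114 genes with a mean of 10 or more CPM in oligodendrocytes, the levels most like Fkbp5 across the 17 mice were those of Map7d2 (r = 0.91), Zbtb16 (r = 0.89) and Tmod2 (r = 0.89). Only 1 gene had a higher r than Zbtb16 and 9 had a higher r than Tsc22d3. The genes most like Sgk1 were Polr3e (r = 0.95), Per1 (r = 0.90), a clock gene that glucocorticoids induce, and Sesn3 (r = 0.90). These rankings describe points that share libraries, and no test is attached. Of the 28 listed glucocorticoid-responsive genes 13 were measured at that level, and 6 of the 13 (46.2%) had r of 0.5 or more with Fkbp5, where 2.42% of all genes did. They were Arrdc2 (r = 0.82), Per1 (r = 0.76), Klf9 (r = 0.65), Ddit4 (r = 0.62), Bcl6 (r = 0.55) and Klf15 (r = 0.54). With Sgk1 it was 10 of 13 (76.9%), where 2.96% of all genes did. The lists were chosen with earlier results of these data known, so these shares are a description and no independent support. For the receptor machinery it was 0 of 14 with Fkbp5 and 2 of 14 with Sgk1, and for clock genes, which leave out Per1, 0 of 9 with either. For immediate early genes it was 0 of 6 with Fkbp5 and 2 of 6 (33.3%) with Sgk1, where 1 of the 6 had an r of −0.5 or less.

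Over the 36 pairs of gene and class with every mouse measured and a mean of 10 or more CPM, Malat1 ASO replicate 2 was the highest of the 17 mice in 13, Fkbp5 in all 6 classes among them. It was alone the lowest in 2, Nr3c1 in oligodendrocytes and astrocytes. For Sgk1 and Errfi1 in perivascular macrophages it tied with other mice for the lowest, at 0 UMIs. Its Nr3c1 level in oligodendrocytes was 170 CPM. No share over all genes stands beside the 13 of 36, and the pairs of a mouse share its library. The next most often highest were saline replicate 4 and anti-TfR:Malat1 replicate 2, with 4 pairs each. The mice with high Fkbp5 in oligodendrocytes thus came from several groups, including saline replicates 3 and 4 at 43.3 and 39.1 CPM.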

How the data were processed

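Per the submitters' processing notes the authors used Cell Ranger 6.0.1 and Seurat 4, with mm10. The deposited counts are whole UMI counts per gene and nucleus, and the deposited metadata give a label, a cluster, a batch and a doublet call for each nucleus. Every deposited nucleus held 500 or more UMIs and 298 to 4500 genes. Another 10 metadata columns were not used. The label reference, doublet caller and meaning of the batch are not given in the sources used here.

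Counts were summed per mouse and label (20 or more nuclei) in Python 3.11.15 with pandas 2.3.3 and numpy 2.4.6 (statistics with scipy 1.17.1, figures with matplotlib 3.10.9). In R 4.3.3, edgeR 4.0.16 (filterByExpr, TMM, glmQLFit, glmQLFTest) fitted all 17 mice in each of 6 classes, and batches were tested jointly with the group in the model. An edgeR SE is the log2 change divided by the root of F. CPM are per 1000000 UMIs of the class in that mouse. Correlations used a pseudocount of 1 and 100000 resamples. The code was tested on simulated data.

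The always-named genes were the 7 members. Of the lists, up to 3 called genes each way, and for Fkbp5 and Sgk1 the 3 genes of highest r, were to be named. Other list genes were named after their values were seen. Members and lists were chosen with earlier results of these data known. Alternatives were DESeq2 1.42.0, RLE scaling, library sizes without Malat1, no filter, the 2 groups alone, batch or replicate blocks, no doublet calls, 1000 or more UMIs, 50 or more nuclei, labels joined with clusters, a pseudocount of 5 and leaving out each mouse. Glia (225 nuclei, 20 or more in only 5 mice) were not tested.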

Additional observations from a re-analysis of the deposited data

Results flagged for a closer look

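In the groups of 4 and 6 mice (the 3 OTV:Malat1 mice were too few for this test), 8 of 108 tests found 1 mouse set apart from the rest of its group by a gap beyond Dixon's 95% critical value, and chance gives about 1 in 20. Malat1 ASO replicate 2 accounted for 4 of them. It had 89.1 CPM of Fkbp5 in oligodendrocytes (next mouse 28.2), 588 CPM in vascular nuclei (next 156) and 1378 CPM in perivascular macrophages (next 189). It also had 276 CPM of Zbtb16 in oligodendrocytes (next 112). The perivascular value rests on 42 UMIs of Fkbp5.

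The remaining 4 lay in the small classes. Zbtb16 in vascular nuclei was 231 CPM in anti-TfR:Malat1 replicate 4 (next 128). Nr3c1 in vascular nuclei was 176 CPM in saline replicate 3 (next 241). In perivascular macrophages Zbtb16 was 0 in saline replicate 3 (next 46.5) and Errfi1 was 0 in saline replicate 1 (next 23.3), where a mouse had 23 to 63 nuclei and at most 5 UMIs of either gene.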

How the results depend on the processing

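In the treatment comparisons 0 members were called in every alternative that was run, including each mouse left out (0 to 0), DESeq2 and both blocks. Of 3652 refitted values of the 132 member changes 0 passed, 251 changed sign, and the lowest adjusted p was 0.726. Of 560 refitted differences between oligodendrocytes and neurons 38 changed sign.

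The counts over all genes moved. For OTV:Malat1 against saline (5) it was 2 with Malat1 left out of library sizes or only those groups fitted, 35 with no filter, 3 without doublet calls and 3 with 1000 or more UMIs. With no filter it was 5 for anti-TfR:Malat1 (0), 31 for Malat1 ASO (0) and 22 for OTV:Malat1 against anti-TfR:Malat1 (2), where leaving Malat1 out of library sizes gave 0. Leaving Malat1 out also took it from the genes tested. In the main fit Malat1 was called in oligodendrocytes, astrocytes and microglia for OTV:Malat1 against saline. Between OTV:Malat1 and anti-TfR:Malat1 it was called in oligodendrocytes and astrocytes. Batch as a block gave 1 for anti-TfR:Malat1. Replicate number equalled batch number in saline and Malat1 ASO, and in anti-TfR:Malat1 replicates 1 to 3. In oligodendrocytes and neurons, deviations of same-numbered Malat1 ASO and saline mice had correlations of −0.09 to 0.71. For anti-TfR:Malat1 replicates 1 to 3 with saline they were 0.16 to 0.49. OTV:Malat1 numbers did not follow the batch, and its pairs with saline or anti-TfR:Malat1 gave −0.61 to 0.57. The main treatment fits used no block. The replicate block gave 0 members and 5 genes for OTV:Malat1 against anti-TfR:Malat1. Leaving out 1 mouse gave 2 to 6, 0 to 1, 0 to 1 and 1 to 3 genes. Between batches, members called were 10 with no filter, of 41 tested, where the share over all pairs is not given here. With 1 mouse left out they were 1 to 8, beside 3700 to 7043 calls over all genes, against 6453 in the main fit. Correlations passing were 2 without the 2 farthest mice and 5 without Malat1 ASO replicate 2. Apart from Malat1 leaving the genes tested, the cause of these differences was not tested.

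Depth limits the vascular nuclei and perivascular macrophages most, where Fkbp5 rests on 1 to 42 UMIs per mouse. For Fkbp5 the astrocytes are as thin, with 1 to 32 UMIs per mouse. Bulk sums over a label do not tell more nuclei with the transcript from more transcript per nucleus.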
